A study of Mus musculus with 12 samples.

Results

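Of the 5948 H3K27ac regions narrower than 10000 bp that lay at protein-coding promoters in control cardiomyocytes (CMs), 705 had no counterpart in RIP140-null CMs. These control-only promoter regions belonged to 678 genes and are described here. They were selected on the region lists themselves: a member was a region of the control list, on chromosomes 1 to 19 or X, that shared no base with any region of the RIP140-null (KO) list and whose center was at most 1000 bp upstream and at most 100 bp downstream of a transcription start site (TSS) of a protein-coding gene in GENCODE M21 (GRCm38). The absence of overlap, the width and the position of a member are therefore descriptions of how it was chosen. In all, the control list held 53750 regions on these chromosomes and the KO list 45517.

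The study profiled H3K27ac by CUT&RUN, in which an antibody directs a nuclease to chromatin and the released DNA is sequenced, in CMs from hearts of male mice aged 10 to 12 weeks. Control CMs carried floxed Nrip1 without Cre (Nrip1 f/f Cre-), and KO CMs carried the same floxed alleles with Cre driven by the cardiac Nkx2.5 promoter (Nrip1 f/f Cre+, csNrip1-/- mice). Since only the KO carried Cre, effects of the deletion and of Cre cannot be told apart. Each genotype had 3 H3K27ac and 3 IgG replicates of 200000 CMs, and the CMs had been enriched by low-speed centrifugation after perfusion. The deposited lists hold regions found in at least 2 of 3 replicates and carry no signal. Library depth and the spread between replicates are therefore unknown, no member could be tested between genotypes, and the 95% Wilson intervals below cover counting error only.

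RIP140, the product of Nrip1, is a corepressor that binds nuclear receptors and recruits histone deacetylases to their target genes. Acetylation of lysine 27 of histone H3 marks active promoters and enhancers and is removed by histone deacetylases. Most promoters of broadly expressed genes lie in CpG islands, stretches in which the dinucleotide CG is not depleted, whereas many promoters used in only a few tissues, and many enhancers, lie in CpG-poor DNA.

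The members ranged from CpG-dense promoters at the start of a gene to CpG-poor sequence at an internal TSS, and a pair of them shows that range. The windows hold the 250 bp upstream of the TSS nearest the region's center, read 5′ to 3′ on the strand of the gene from the RefSeq GRCm38 genome, with every CG dinucleotide in capitals. Cenpn was the widest CpG-rich member and Rasa1 the widest member of all, and neither window met an annotated exon. Cenpn (chr8:116921480-116921729, plus strand) had 17 CG dinucleotides and Rasa1 (chr13:85247261-85247510, minus strand) had 1.
Cenpn: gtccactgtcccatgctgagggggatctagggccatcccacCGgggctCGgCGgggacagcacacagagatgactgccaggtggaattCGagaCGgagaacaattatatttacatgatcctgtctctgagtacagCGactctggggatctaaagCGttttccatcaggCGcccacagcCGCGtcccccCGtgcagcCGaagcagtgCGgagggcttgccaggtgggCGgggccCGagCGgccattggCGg
Rasa1: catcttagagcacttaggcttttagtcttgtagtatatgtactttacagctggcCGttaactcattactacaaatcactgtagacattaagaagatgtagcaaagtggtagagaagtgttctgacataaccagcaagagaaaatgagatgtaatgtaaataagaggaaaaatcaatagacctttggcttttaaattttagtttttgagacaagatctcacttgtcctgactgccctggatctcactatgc

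Control-only regions made up 11.9% of the control promoter regions. Away from these promoters, 32.8% of the 46138 control regions under the same width were control-only, and on the KO side 14.6% of 5734 promoter regions were KO-only. Of the 1540 promoter regions found in a single genotype, 45.8% (43.3 to 48.3) were control-only and the other 835 were KO-only. That share depended on how much of each list was read, since it was 28.7% when the lists were cut to equal numbers of their widest regions and 19.5% among regions merged from 3 or more peaks. By chromosome, the control-only share of control promoter regions ran from 7.78% on chromosome 12 (13 of 167) to 15% on chromosome 18 (25 of 167), with intervals of 4.61 to 12.9 and 10.4 to 21.2 that overlapped.

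The number of members followed the definition of a promoter. Only 221 of the 705 (31.3%) were placed by the 5′ end of their gene, and the other 484 were placed by an internal TSS. The corresponding share was 40.0% for KO-only regions and 45.2% for the 5243 shared regions of the control list. With TSSs restricted to protein-coding transcripts 465 members were found, and with only the 5′ end of each gene 268. With promoters reaching from 2000 bp upstream to 500 bp downstream there were 1182, and with any base of a region inside the promoter there were 1139.

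The members were narrow and rested on few replicate peaks. Their median width was 997 bp (501 to 5714), compared with 1353 bp for KO-only and 2035 bp for shared regions. The number that ends each region's name counts the replicate peaks merged into it, and since a region needed peaks in at least 2 replicates, a count of 2 means 1 peak in each of 2 replicates and none in the third. This count was 2 for 649 members (92.1%, 89.8 to 93.8), 3 for 53 and 4 for 3. It was 2 for 72.3% of KO-only regions, 55.2% of shared regions of the control list and 44.0% of shared regions of the KO list. Only 56 members, 2.33% of the 2404 control promoter regions with 3 or more merged peaks, had more than 2. Members merged from 2 peaks had a median width of 948 bp, and those merged from more had 1663 bp. There were 350 members at least 1000 bp wide, and 416 remained when the lists were cut to equal numbers of their widest regions.

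**Figure D1:**
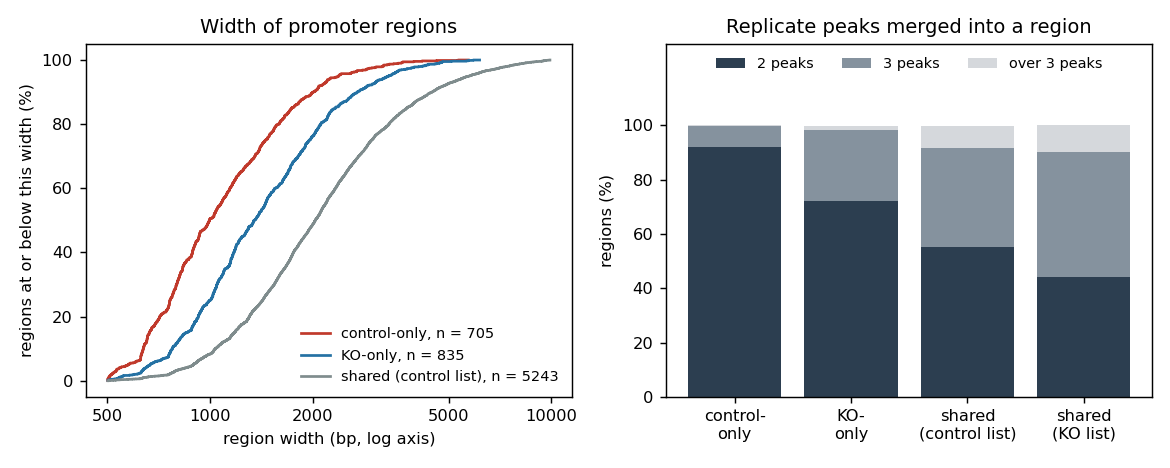
Width and replicate support of promoter regions. Left, the percentage of control-only (n = 705), KO-only (n = 835) and shared (control list, n = 5243) regions at or below each width in bp (log axis). Right, the percentage of regions merged from 2, 3 or more than 3 replicate peaks. Control-only regions were the narrowest, with a median of 997 bp, and 92.1% of them were merged from 2 peaks.

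The centers of the members lay farther upstream than those of the other promoter regions. Relative to the TSS, with upstream positions negative, the median center was at -218 bp for members, -117 bp for KO-only and -133 bp for shared regions. Centers more than 500 bp upstream were found for 193 members (27.4%, 24.2 to 30.8), 17.2% of KO-only and 17.9% of shared regions. The TSS itself was inside the region for 542 members (76.9%, 73.6 to 79.8), compared with 90.5% of KO-only and 96.1% of shared regions, which were wider. A protein-coding TSS on the opposite strand lay within 1000 bp upstream for 27 members (3.83%, 2.65 to 5.51), 8.26% of KO-only (6.58 to 10.3) and 13.3% of shared regions (12.4 to 14.3). These shares were not split by kind of TSS, and fewer members than other regions were placed by the 5′ end of a gene.

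**Figure D2:**
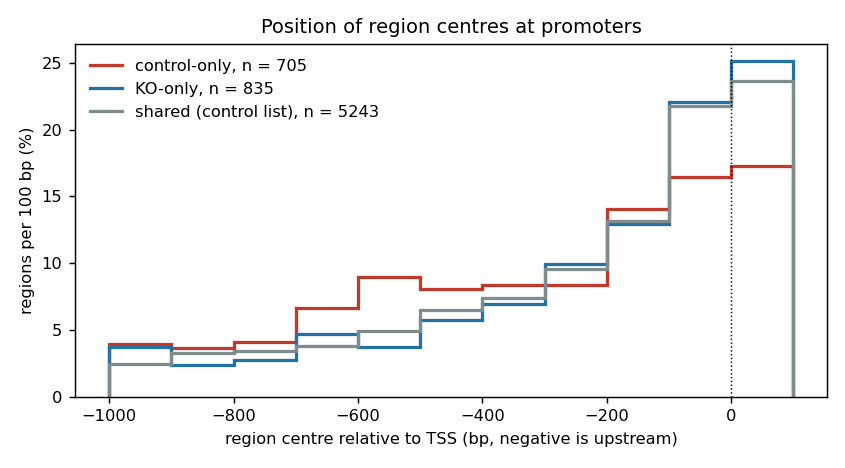
Position of region centers. The percentage of control-only, KO-only and shared (control list) promoter regions in each 100 bp step of the distance from TSS to region center, with negative values upstream. The members are spread farther upstream, with 27.4% of centers beyond 500 bp.

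The members were poor in CpG. A promoter was called CpG-rich here if the 1000 bp around the TSS had a GC content of at least 50% and an observed to expected CpG ratio of at least 0.6. This held for 204 members (28.9%, 25.7 to 32.4), compared with 52.6% of KO-only regions (49.2 to 55.9), 62.1% of shared regions (60.7 to 63.4) and 44.8% of the 5′ ends of all 21755 protein-coding genes (44.1 to 45.4). The median CpG ratio was 0.379 for members, 0.633 for KO-only, 0.689 for shared regions and 0.558 for all genes. The median GC content around the TSS was 52.5% for members, 57.5% for KO-only and 57.2% for shared regions.

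**Figure D3:**
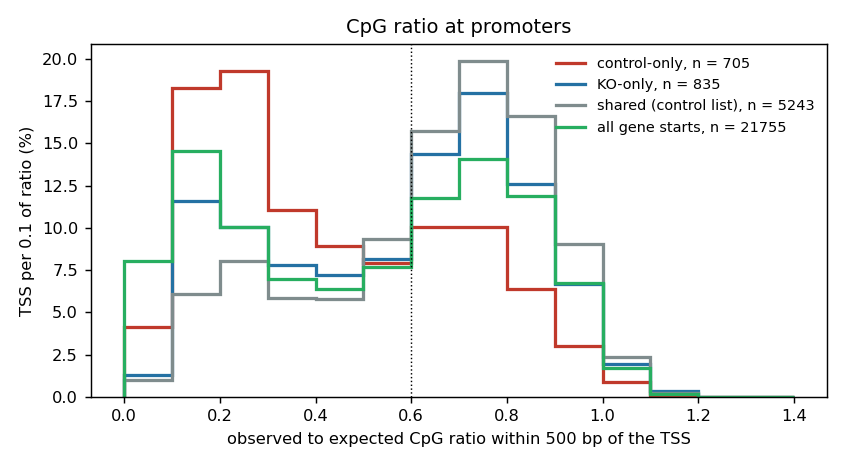
CpG ratio around the TSS. The percentage of TSSs in each 0.1 step of the observed to expected CpG ratio, for control-only, KO-only and shared (control list) promoter regions and for the 5′ ends of all protein-coding genes; the dotted line marks the limit of 0.6. Control-only regions peak below 0.3, with a median of 0.379, and shared regions peak above 0.6, with a median of 0.689.

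The lower CpG content of members held within each kind of TSS. At the 5′ end of a gene 50.7% of members were CpG-rich (112 of 221, 44.1 to 57.2), compared with 70.4% of KO-only (65.3 to 75) and 75.2% of shared regions (73.4 to 76.9). At internal TSSs 19% of members were CpG-rich (92 of 484, 15.8 to 22.7), compared with 40.7% of KO-only (36.5 to 45.1) and 51.3% of shared regions (49.4 to 53.1). Among regions merged from 2 peaks the shares were 27.9% (24.6 to 31.5), 44.9% (40.9 to 48.9) and 59.4% (57.6 to 61.2), in the same order. Among regions under 1000 bp wide they were 26.5% (22.2 to 31.3), 39.2% (32.9 to 46.0) and 57.2% (52.5 to 61.8). The intervals of members lay below those of both other classes in each of these comparisons. Members at the 5′ end of a gene had a CpG-rich share whose interval held the 44.8% of all genes.

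**Figure D4:**
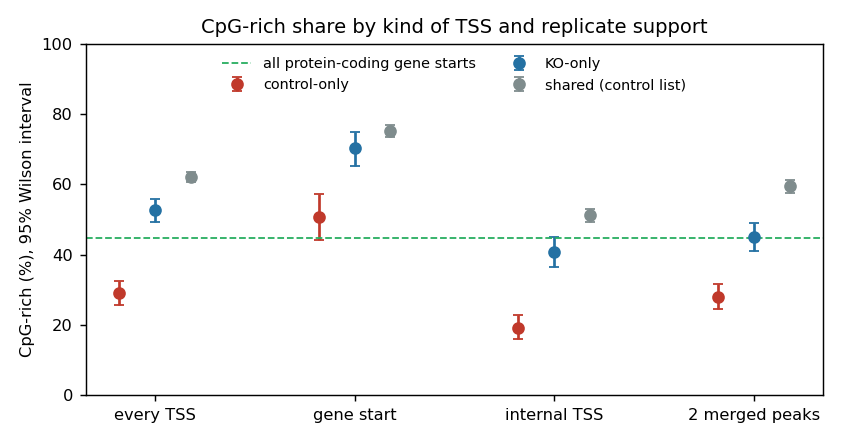
CpG-rich share of promoter regions by kind of TSS and replicate support. Points are percentages with 95% Wilson intervals for control-only, KO-only and shared (control list) regions, over every TSS, gene 5′ ends, internal TSSs and regions merged from 2 peaks; the dashed line marks all protein-coding gene 5′ ends (44.8%). Control-only regions have the lowest share in each column, from 19% at internal TSSs to 50.7% at gene 5′ ends.

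Sequence motifs were counted as exact matches on both strands over the 250 bp before and the 50 bp after the TSS, and a match is a description of letters and not of a bound site. The GC box GGGCGG, bound by SP and KLF factors, was found at 35.2% of members, 52.2% of KO-only, 55.9% of shared regions and 43.4% of all gene 5′ ends. At promoters that were not CpG-rich, it was found at 21.6% of members (18.2 to 25.4), 26.3% of KO-only (22.2 to 30.8) and 29.1% of shared regions (27.2 to 31.1). All such gene 5′ ends had 20.4% (19.7 to 21.1). At CpG-rich promoters it was found at 68.6% of members (62.0 to 74.6), 75.6% of KO-only (71.4 to 79.4) and 72.2% of shared regions (70.7 to 73.8). All CpG-rich gene 5′ ends had 71.7% (70.8 to 72.6), and the interval of members overlapped each of these. The CCAAT box was found at 31.3% of members, 35.7% of KO-only and 36.8% of shared regions.

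The ETS motif CCGGAAGT, common at promoters of housekeeping genes, was found at 16 members (2.27%), 5.39% of KO-only, 8.74% of shared regions and 4.73% of all gene 5′ ends. Its lower share at members remained when CpG-rich promoters alone were counted, with 10 of 204 members (4.90%, 2.68 to 8.79), 7.29% of KO-only (5.21 to 10.1) and 12.0% of shared regions (10.9 to 13.1). All CpG-rich gene 5′ ends had 8.39% (7.85 to 8.95). The interval of members lay below that of shared regions only, and it overlapped those of KO-only regions and of all CpG-rich gene 5′ ends. The YY1 motif AANATGGCG was found at 1.70% of members, 2.87% of KO-only and 5.07% of shared regions. Among CpG-rich promoters it was found at 3.43% of members (1.67 to 6.91), 4.78% of KO-only (3.15 to 7.20) and 7.13% of shared regions (6.30 to 8.07), with overlapping intervals. The GATA motif AGATAAG was found at 24 members (3.4%), 2.4% of KO-only and 2.12% of shared regions, and among promoters that were not CpG-rich at 4.39% of members (2.92 to 6.56) and 3.67% of shared regions (2.93 to 4.59), with overlapping intervals. TATAAA at 45 to 15 bp upstream of the TSS was found at 13 members (1.84%), 0.599% of KO-only, 0.973% of shared regions and 2.66% of all gene 5′ ends.

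Motifs of factors tied to CM metabolism were rare in every class. The ERR motif TCAAGGTCA, bound by the estrogen-related receptors that drive mitochondrial genes, was found at 4 members (0.567%), 0.479% of KO-only, 0.553% of shared regions and 0.478% of all gene 5′ ends. The MEF2 motif, which can contain TATAAA, was found at 6 members (0.851%, 0.391 to 1.84), 0 of 835 KO-only regions (0 to 0.458%) and 0.725% of shared regions (0.529 to 0.993). NRF1 motifs (TGCGCATGC), typical of nuclear genes for mitochondrial proteins, were found at 13 members (1.84%), 1.32% of KO-only and 2.80% of shared regions. Among CpG-rich promoters they were found at 3.92% of members (2.0 to 7.55), 2.05% of KO-only (1.08 to 3.85) and 3.87% of shared regions (3.26 to 4.59). The CRE (TGACGTCA), AP-1 (TGANTCA), E-box (CACGTG), ZBTB33 (CTCGCGAG) and THAP11 (ACTACAATT) motifs were found at 1.56%, 6.95%, 7.80%, 0.993% and 0.567% of members, at 0.958%, 5.03%, 8.50%, 0.958% and 0.838% of KO-only regions and at 3.38%, 5.13%, 9.71%, 1.72% and 0.725% of shared regions.

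Many members lay in genes with another promoter that was marked in the KO. At 298 of the 678 genes (44.0%, 40.3 to 47.7) a KO region covered another TSS of the same gene, and the mirrored share was 28.4% for the 825 genes of KO-only regions (25.4 to 31.5). The share differed by the kind of TSS: a KO region covered another TSS for 12.7% of members at the 5′ end of a gene (28 of 221, 8.91 to 17.7) and for 59.7% of members at an internal TSS (289 of 484, 55.3 to 64.0). For KO-only regions the mirrored shares were 8.08% (5.61 to 11.5) and 41.9% (37.7 to 46.3). No such share was computed for all genes with a control promoter region. Whether the members differ from those genes in this respect is therefore not known. The contrast between the 2 kinds of TSS is partly set by definition. An internal TSS always has another TSS in its gene, whereas the 40 members in genes with 1 TSS could have none. In 241 of the 484 members at an internal TSS (49.8%) the 5′ end of the gene itself was inside a KO region. The TSS nearest the member was inside a KO region for only 2 of 705, Vapa and Cdk14, whose members were centered at -588 and -976 bp from it.

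The nearest KO region was a median of 10156 bp from a member (25th to 75th percentile 3465 to 25481 bp), and it was within 1000 bp for 43 members (6.10%). The nearest shared control region was a median of 12629 bp away. The members closest to the overlap limit were at Vapa, Zfp513 and Pcbp2, separated from a KO region by 55, 62 and 73 bp, and the control promoter regions just beyond it were at Nsmaf, Rnf39 and Lgr6, which shared 47, 62 and 71 bp with KO regions. Within gene bodies extended by 5 kb, 194 of the 678 genes (28.6%) held no KO region. A similar number, 187 (27.6%), held no control region outside the member, and 157 (23.2%) held no other region of either list. In the 454 genes with further regions in both lists, the median log2 ratio of length covered in KO to control outside the member was 0.05 (25th to 75th percentile -0.30 to 0.37), beside 0.12 in 4819 genes with a control promoter region and no member, whose promoter regions were included.

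The widest members were at genes of varied function. The widest was an internal TSS of Rasa1, a GTPase-activating protein for Ras (chr13:85244821-85250534, 5714 bp, merged from 3 peaks), and a second member of 776 bp lay beside it. KO regions nevertheless covered 22916 bp elsewhere in Rasa1, compared with 16528 bp outside its members in the control. Oit3 had a member of 5331 bp over its 5′ end and no KO region in the extended gene. At Cdc42bpa, a kinase that acts downstream of Cdc42, a member of 4619 bp lay over an internal TSS, and the rest of the gene held 19671 bp of control and 4200 bp of KO regions (log2 ratio -2.23). Lalba, which encodes the milk protein alpha-lactalbumin, had a member of 4179 bp and no KO region. The others among the 10 widest were at Fam208b (3959 bp), Agtpbp1 (3672 bp), the MAP kinase phosphatase gene Dusp16 (3656 bp), the centromere protein gene Cenpn (3637 bp), Dgke (3554 bp) and Insig1 (3455 bp). Only Cenpn and Insig1 of these 10 were CpG-rich.

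The members with most replicate peaks were at Insig1, Poldip3 and Sertad2, each merged from 4. Insig1, a brake on sterol synthesis in the endoplasmic reticulum, had its member at the 5′ end (chr5:28069086-28072540) with a CpG ratio of 0.857, and a KO region lay 1529 bp away. The member of Poldip3 (2896 bp) also covered its 5′ end, and the nearest KO region was 13340 bp away. Sertad2 had a CpG-rich member of 2206 bp at its 5′ end and a CpG-poor member of 3194 bp at an internal TSS. Cxcr4, the receptor of the chemokine CXCL12, had a member of 3309 bp merged from 3 peaks (chr1:128590689-128593997) that was 110462 bp from the nearest KO region and the only region of either list within its extended gene.

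The hand-written lists of energy metabolism and contraction held no members, at counts that were small for most lists. Of 5497 protein-coding genes with a control promoter region, 12.3% held a control-only one. Lists for fatty acid oxidation, triglyceride turnover, the TCA cycle, branched-chain amino acid breakdown and glycolysis together named 119 genes, of which 114 had a TSS inside a control region, 38 had a control promoter region centered on the promoter, and 0 held a member. The counts were 0 of 9 for the sarcomere and Z-disc (0 to 29.9%), 0 of 7 for calcium cycling (0 to 35.4%), 0 of 10 for adrenergic receptors and cyclic AMP (0 to 27.8%) and 0 of 4 for the fetal and stress response (0 to 49%), and each interval held the background share. Some genes of these lists with a KO promoter region held a KO-only one. They were 1 of 9 for fatty acids (Acacb), 1 of 9 for triglycerides (Lpin3) and 1 of 6 for branched-chain amino acids (Ivd). The TCA cycle gave 0 of 2 and glycolysis 0 of 8. The sarcomere gave 1 of 9 (Myl4), calcium cycling 2 of 6 (Camk2d and Camk2g), adrenergic genes 1 of 12 (Adcy5) and the fetal response 0 of 5. Outside the lists, the troponin I genes Tnni1 and Tnni2, named after their values were seen, held members centered 708 and 837 bp upstream of a TSS, with KO regions 1230 and 231 bp away. Among families taken by symbol, members were found at 0 of 43 mitochondrial ribosomal protein genes (0 to 8.20%) and 0 of 15 mitochondrial carriers. They were found at 0 of 11 lysine methyltransferases and demethylases and at 1 of 32 respiratory chain genes, Ndufb4. Ndufb4 had a KO region 564 bp away and 2 other TSSs inside KO regions. In the same order, 2 of 32, 6 of 18, 1 of 10 and 0 of 33 genes with a KO promoter region held a KO-only one. Of all KO promoter regions 14.6% were KO-only, which is a share of regions and not of genes. Cytosolic ribosomal protein symbols gave 2 of 61 (0.904 to 11.2%), of which Rps6ka4 encodes a kinase and Rps10 had a KO region 90 bp away. Among 23 proteasome subunit genes with a control promoter region, 1 (Psmb6) held a member.

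**Figure D5:**
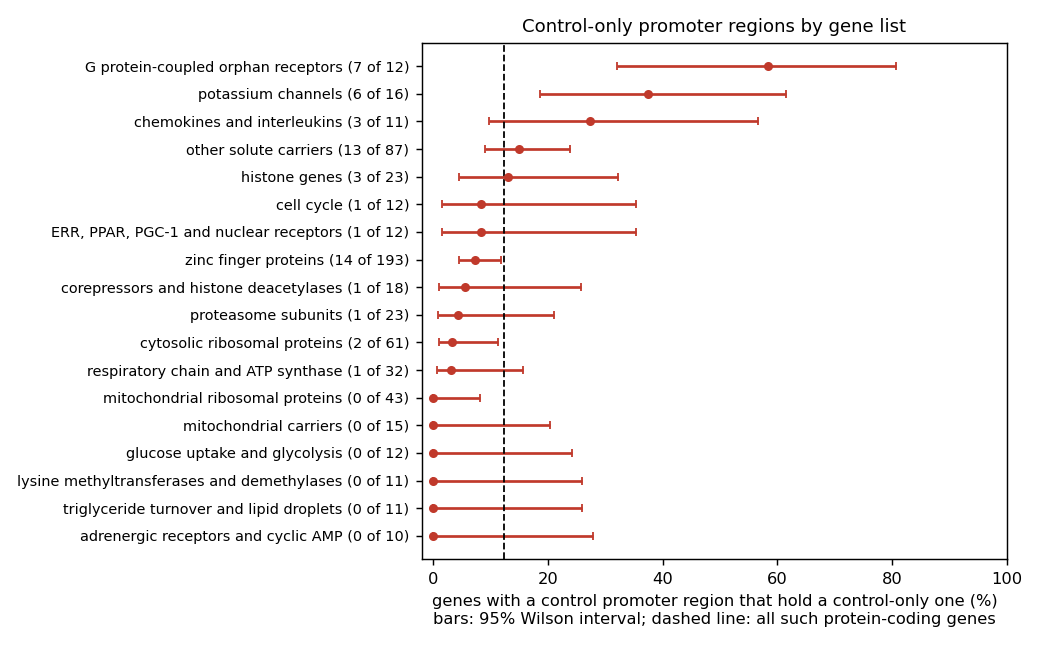
Members by gene list. Points are the percentage of genes with a control promoter region that held a control-only one, with 95% Wilson intervals, for lists with at least 10 such genes; the dashed line marks all such protein-coding genes (12.3%). Receptors with Gpr or Adgr symbols (7 of 12, labeled as orphan receptors) and potassium channels (6 of 16) lie above the line, and mitochondrial ribosomal proteins (0 of 43) below it.

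Members at listed regulators of transcription and the cell cycle lay mostly at internal TSSs. Of the cardiac transcription factors 1 of 4 held a member, Myocd, a coactivator of serum response factor, where a 755 bp region lay 542 bp upstream of an internal TSS and 4 other TSSs were inside KO regions. The nuclear receptor list gave 1 of 12, Pparg, with a 657 bp region at an internal TSS and 6 other TSSs inside KO regions. The clock list gave 2 of 8, Arntl, which encodes BMAL1, and Hlf, a clock output factor, whose regions of 1240 and 3230 bp lay at internal TSSs with KO regions 1253 and 1130 bp away. Cell cycle genes gave 1 of 12, Cdk1, with a KO region 842 bp away. The body of Myocd held 60241 bp of KO and 47306 bp of other control regions, and that of Pparg 69622 and 56576 bp. The KO list held KO-only regions at 2 of 5 cardiac transcription factors, 2 of 13 nuclear receptor, 3 of 10 clock and 4 of 15 cell cycle genes with a KO promoter region. These counts of genes are small. Of all KO promoter regions, counted as regions and not as genes, 14.6% were KO-only. Zinc finger proteins gave 14 of 193 (7.25%, 4.37 to 11.8).

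Receptor and channel families held more members than the background share, at small counts. G protein-coupled receptors taken by symbols that start with Gpr or Adgr gave 7 of 12 (58.3%, 32.0 to 80.7): Adgrl1, Gpr1, Gpr180, Gpr182, Gpr85, Gprc5a and Gprc5b. Potassium channels gave 6 of 16 (37.5%, 18.5 to 61.4): Kcnab2, Kcne3, Kcnj15, Kcnk2, Kcnq5 and Kcnv2. These families were singled out after their counts were seen. All 13 of these regions were merged from 2 peaks. Among genes with a KO promoter region, KO-only regions were found at 6 of 14 potassium channel genes and 2 of 8 of these receptor genes. The KO-only share of all KO promoter regions, counted as regions and not as genes, was 14.6%. Other solute carriers gave 13 of 87 (14.9%, 8.95 to 23.9), histone genes 3 of 23, chemokines and interleukins 3 of 11, protocadherins 2 of 6, Wnt, Fgf and Bmp ligands 1 of 6 (Wnt5a), olfactory receptors 1 of 3 and keratins 1 of 1 (Krt19). Homeobox clusters had no control promoter region.

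Markers of other heart cells were also present among the members. The control list held a promoter region at 2 of 10 fibroblast markers, Col3a1, a fibrillar collagen, and Pdgfra, a receptor for platelet-derived growth factor, and both were members, whereas the KO list held none. The Col3a1 member covered the 5′ end over 1815 bp, the Pdgfra member was 796 bp wide at an internal TSS, both were merged from 2 peaks, and the nearest KO regions were 159802 and 108739 bp away. Of the endothelial markers 1 of 2 with a control promoter region held a member, Cdh5, which encodes VE-cadherin, and 1 of 3 with a KO promoter region held a KO-only one, Flt1, a receptor for vascular endothelial growth factor. TSSs of 10 of 10 endothelial markers lay inside control regions and 9 inside KO regions, and the numbers were 4 and 5 for smooth muscle and pericyte markers, 0 and 0 for macrophage markers and 9 and 9 of 10 for CM markers. Smooth muscle and pericyte markers gave 0 members of 3, with a KO-only region at 1 of 4, Kcnj8, and CM markers gave 0 members of 1. The part of other cell types in these regions was not tested.

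Of the 678 member genes and the 825 genes of KO-only regions, 17 held both a control-only and a KO-only promoter region. No pair shared a TSS. The KO-only region lay at a TSS upstream of the control-only one in 14 genes and downstream in 3. The gap between them ranged from 365 bp at Stim1 to 270268 bp at Myo5b, with a median of 31066 bp. The control-only TSS was CpG-rich in 2 of these 17 genes and the KO-only TSS in 8. Over the whole classes 28.9% of control-only and 52.6% of KO-only regions were CpG-rich. The 5′ end of a gene placed 31.3% of all control-only and 40.0% of all KO-only regions. The gap was 30576 bp at Arntl and 25792 bp at Met, the receptor of hepatocyte growth factor, and in both the KO-only region lay at a CpG-rich TSS upstream. The widest such members were at Foxp1 (3223 bp), Myo5b (2136 bp), Elmo1 (2026 bp), Erp44 (1609 bp) and Plekha7 (1548 bp), and those at Ltbp1, Rcor3 and Pdlim2 were 1270, 1119 and 1047 bp wide. At Foxp1, a forkhead transcription factor, 13 other TSSs were inside KO regions.

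Members occurred more than once in 24 genes (3.54%). Epb41l2, Nedd4l and Mllt10 had 3 each, with widths of 669 to 936 bp at Epb41l2, 934 to 1762 bp at Nedd4l and 534 to 757 bp at Mllt10, all merged from 2 peaks and at internal TSSs. The other 21 had 2 each. Elavl1 had members of 3349 and 2696 bp, Blm, a DNA helicase gene, 2686 and 981 bp, and Tmem229b 1538 and 1491 bp. Vangl1, a planar cell polarity gene, had a CpG-rich member of 794 bp and a CpG-poor one of 1301 bp, and Csk, a kinase that inhibits Src, had a CpG-rich member of 1659 bp and a CpG-poor one of 691 bp.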

How the data were processed

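H3K27ac CUT&RUN reads of 3 replicates per genotype were aligned by the authors to GRCm38 with Bowtie2 2.4.2, duplicates were removed with SAMtools, and enriched regions were called in each replicate and merged with HOMER 4.11.1, keeping those found in at least 2 of 3 replicates. The deposited lists, 1 per genotype, give start and end positions in bp, a name and a score. The deposited score was the same for every region and was not used. Depth and replicate values are unknown, so no test between genotypes was made.

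Regions were compared by overlap of at least 1 bp and placed by the nearest TSS of a protein-coding gene (GENCODE M21). Sequence was read from the RefSeq GRCm38 genome, whose chromosomes contained every region. Shares are given with 95% Wilson intervals. The members and gene lists were chosen with earlier results of these data known. Named genes were those of the 10 widest members, the 10 with most merged peaks, members in hand-written lists, up to 10 genes with regions unique to each genotype, genes with several members and genes named in the text of the study's Results. Some named members and sequences are not reported here. Functions were tested on simulated data. Alternatives changed the overlap, TSS set, promoter limits, width, merged peaks and CpG limits. Calculations used Python 3.11.15, numpy 2.4.6, pandas 2.3.3, scipy 1.17.1, pysam 0.24.0 and matplotlib 3.10.9.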

Additional observations from a re-analysis of the deposited data

How the results depend on the processing

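The results were computed again with 1 definition changed at a time, where the upstream and downstream promoter limits, and the CpG and GC limits, were each changed together. Of 63 such values 28 stayed within 1.5 times the count or within the interval of the value reported. With 50% of a region needed for sharing, 13.6% of control promoter regions and 42.1% of regions unique to a genotype were control-only, 48.1% of member genes had a KO region at another TSS, and the median distance to a KO region was 7779 bp. With TSSs of protein-coding transcripts only, there were 465 members, 9.58% and 43.0% were control-only, 40.9% were CpG-rich and 28.0% had a KO region at another TSS. With the 5′ end of each gene only, the corresponding values were 268, 8.27%, 39.9%, 50.4% and 11.9%, with a median distance of 13282 bp. With wider promoters there were 1182 members, 12.9% of control promoter regions were control-only, 24.9% were CpG-rich and 49.8% had a KO region at another TSS. With any base inside the promoter the number was 1139, the control-only share 9.93% and the share with a KO region at another TSS 47.8%. With equal numbers of the widest regions the number was 416 and the control-only shares 7.71% and 28.7%. With 3 or more merged peaks there were 56 members, control-only shares of 2.33% and 19.5%, 41.1% CpG-rich, 30.9% with a KO region at another TSS and a median distance of 15688 bp. With regions of at least 1000 bp the number was 350 and the control-only shares 6.79% and 35.9%. A CpG ratio of 0.75 with a GC content of 55% left 13.0% CpG-rich. The cause of these changes was not tested beyond the change in regions or TSSs that each alternative makes. In the central 200 bp of the regions, 7 of 13 motif shares moved outside their interval.

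No paired analysis was possible because the replicates of each genotype were merged into 1 list, and for the same reason no replicate was left out. A promoter marked in both lists counts as shared whatever its signal, and one that missed the calling threshold in the KO counts as absent. Library depth is unknown.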
